A study of Oryctolagus cuniculus with 16 samples.

Results

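Transforming growth factor beta (TGF-beta) genes were examined in the femoral heads of rabbits with a surgical form of Perthes disease, a childhood osteonecrosis of the femoral head that follows loss of its blood supply. The set holds 10 of the 20255 genes in the deposited table and was chosen by symbol: the ligands *TGFB1*, *TGFB2* and *TGFB3*, the receptors *TGFBR1*, *TGFBR2* and *TGFBR3*, the latent-binding proteins *LTBP1* and *LTBP2*, the inhibitory *SMAD7* and the TGF-beta-induced matrix protein *TGFBI*. All 10 were found in the table, each with 1 entry, and all 10 passed the low-count filter. Femoral head RNA came from 5 rabbits labelled Perthes' disease and 3 labelled WT (wild type), with 1 total RNA library per rabbit. The wild-type rabbits of the Perthes group were operated on at 8 weeks of age. Blood flow to the femoral head was cut off surgically, by tying a suture around the neck of the femur and severing the ligament of the head. The labels list the disease as a genotype, although the model was made by surgery and the study names no altered allele. The age and any sham operation of the control rabbits, and the time from surgery to sampling, are not given in the sources used here.

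TGF-beta ligands are made as proproteins that are cut by furin and stay bound to their own propeptide, which keeps them latent. LTBP1 links this latent complex to fibrillin and fibronectin in the matrix, where integrins and proteases can release the ligand, whereas LTBP2 resembles LTBP1 but is not known to carry the latent ligand. Free ligand binds TGFBR2, which recruits and phosphorylates TGFBR1, and TGFBR1 in turn phosphorylates SMAD2 and SMAD3. TGFBR3, or betaglycan, presents ligand to TGFBR2 and is needed most for TGF-beta 2, and SMAD7 blocks TGFBR1 in a feedback loop. In bone the latent ligand is stored in the mineralized matrix, and its release during resorption is known to recruit precursors of bone-forming cells.

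The values are the authors' estimated read counts, here scaled to CPM, the usual measure of a gene's counts relative to all counts of its library, with the TMM factors of edgeR. Levels are compared between rabbits for the same gene and not between genes, because transcript lengths were not used. The libraries held 26757087 to 29461482 counts, and the lowest count of any member in any library was 381. Genes were tested with edgeR's quasi-likelihood test over all 15305 genes that passed the filter, and a gene was called where the Benjamini-Hochberg adjusted p was below 0.05. By this rule 951 genes (6.21%) were higher and 1356 (8.86%) were lower in the Perthes group. Scaling by library totals in place of TMM changed these to 678 and 1705, so that the lower share of all calls went from 58.8% to 71.5%.

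The tissue expressed the markers of bone and cartilage in every rabbit, among them *IBSP*, *SP7*, *COL2A1* and *ACAN*. The summed level of the 6 fibroblast markers was 2651 to 4502 CPM in Perthes rabbits and 706 to 1819 CPM in controls, and that of the 6 osteoclast markers was 2772 to 5617 CPM against 1306 to 2368 CPM. The 6 macrophage markers summed to 416 to 1486 CPM against 366 to 388 CPM, with Perthes rabbit 4 the lowest of its group. Markers of the blood-forming marrow moved the other way. The 6 erythroid markers summed to 29.9 to 1678 CPM in Perthes rabbits and 3491 to 4166 CPM in controls, the 5 neutrophil markers found in the table to 15.4 to 862 CPM against 3527 to 9201 CPM, and the 5 megakaryocyte and platelet markers to 6.62 to 98.7 CPM against 156 to 428 CPM. The 5 smooth muscle and pericyte markers summed to 286 to 464 CPM against 165 to 262 CPM. Such sums weigh abundant genes most, and single markers were less uniform. All Perthes rabbits lay above all controls in 4 of 6 fibroblast, 2 of 6 osteoclast and 2 of 6 macrophage markers. No smooth muscle and pericyte marker did so, and 11.2% of all genes did. Every erythroid, neutrophil and megakaryocyte marker found lay below all controls in all Perthes rabbits, as 13.9% of all genes did. The summed levels of the osteoblast, chondrocyte, endothelial, B cell and T cell lists overlapped between the groups. Of the 5 B cell markers found, 4 had log2 fold changes below 0. Among these *MS4A1* lay below all controls in all Perthes rabbits (-2.03, adjusted p = 0.04999 from edgeR). The most abundant B cell marker, *EBF1*, was at 0.32 (adjusted p = 0.418 from edgeR). Perthes rabbit 4 had the highest osteoblast and chondrocyte sums of all rabbits, 2784 and 135859 CPM, and the next highest chondrocyte sum was 75888 CPM in Perthes rabbit 3. No marker matched in the table was at 0 in every library. In such bulk tissue, fewer cells of a type and less RNA per cell cannot be told apart, and the part of these shifts in the TGF-beta results was not tested.

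**Figure D1:**
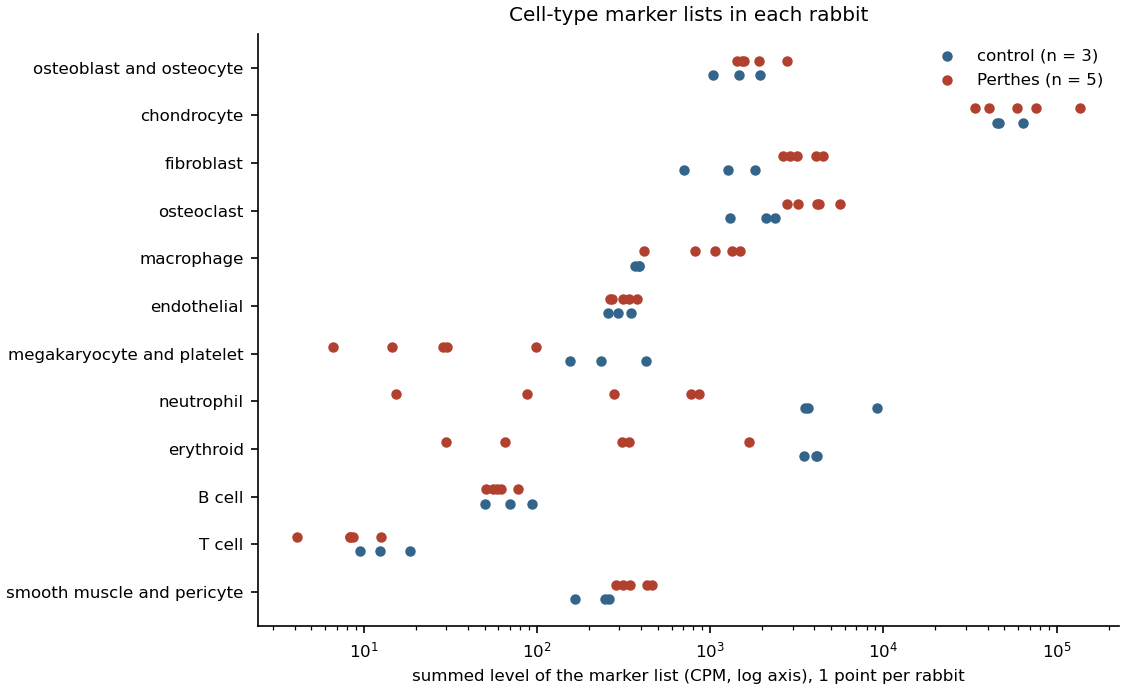
Summed TMM-scaled CPM (log axis) of each list of cell-type marker genes, with 1 point per rabbit (blue, 3 controls; red, 5 Perthes rabbits). The sums of the fibroblast, osteoclast, macrophage and smooth muscle lists lie higher in all Perthes rabbits than in all controls, although not every marker does. Those of the megakaryocyte, neutrophil and erythroid lists lie lower.

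Of the 10 TGF-beta genes, *TGFBI*, *LTBP1* and *TGFBR2* rose in Perthes rabbits and none fell, beside 6.21% of all genes higher and 8.86% lower. At an unadjusted p below 0.05 in edgeR, 5 members were higher and 0 lower, beside 2345 and 2538 of all 15305 genes. DESeq2 at an adjusted p below 0.05 likewise called 3 members higher and 0 lower, beside 1720 and 1916 of all genes. The ligands themselves did not pass the test. The median log2 fold change was 0.55 over the 10 members and 0.02 over all 15305 genes, with 8 members above 0 and 2 below. In 4 members every Perthes rabbit lay above every control, which 11.2% of all genes did in this direction, and in none was every Perthes rabbit below every control, against 13.9% of all genes. Control rabbit 1 had the lowest value of all 8 rabbits in 6 of the 10 members, and Perthes rabbit 4 the highest in 5.

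**Figure D2:**
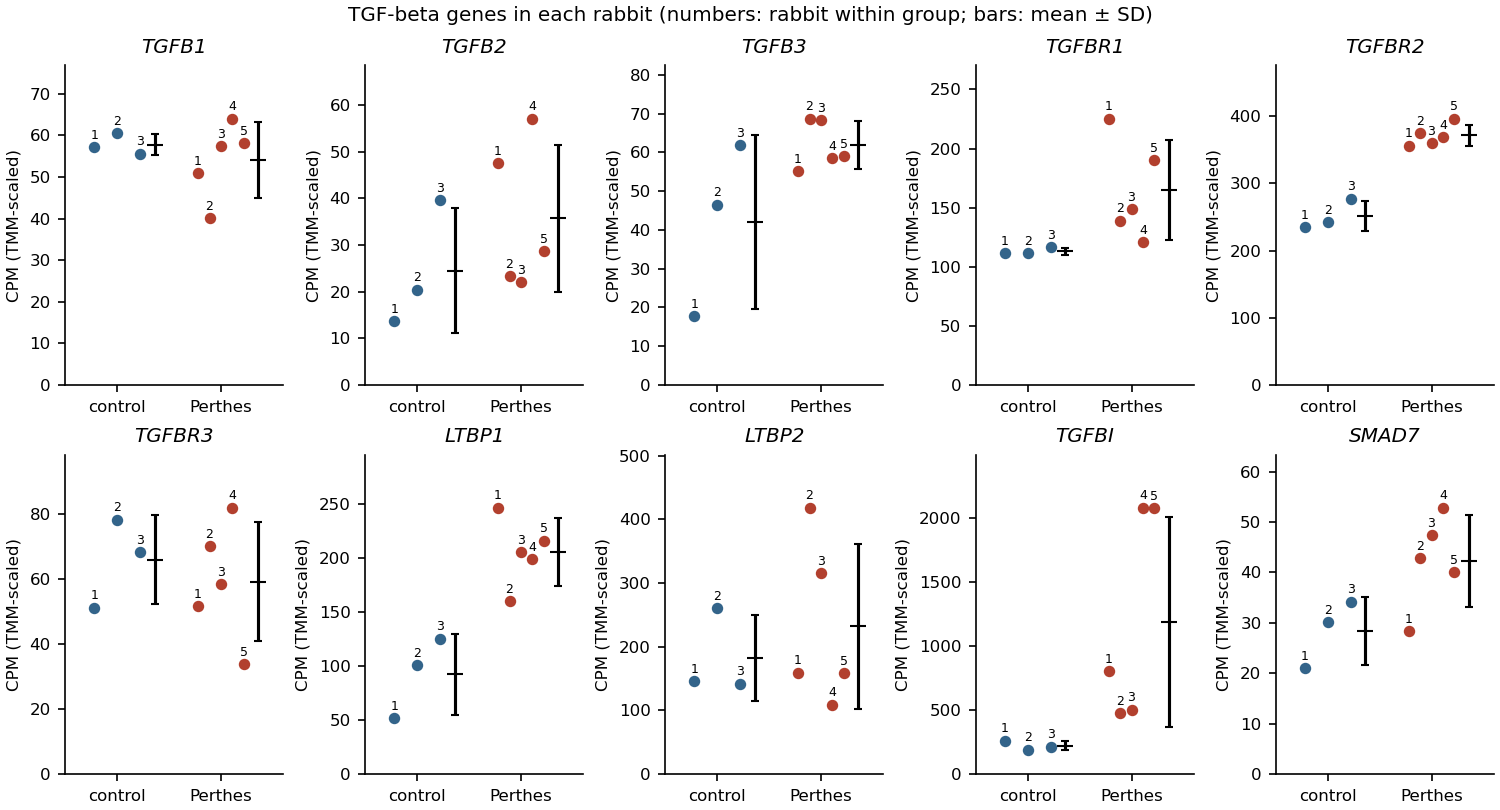
TMM-scaled CPM of the 10 genes in each rabbit (numbers give the rabbit within its group), with the mean and SD of each group beside the points. The Perthes rabbits lie above all controls in *TGFBR1*, *TGFBR2*, *LTBP1* and *TGFBI*, and Perthes rabbits 4 and 5 stand apart at 2076 and 2072 CPM in *TGFBI*.

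*TGFB1*, the main isoform of bone matrix and platelets, was at nearly the same level in both groups. Its level was 50.8, 40.1, 57.4, 64.0 and 58.1 CPM in Perthes rabbits 1 to 5 and 57.1, 60.4 and 55.6 CPM in control rabbits 1 to 3. The controls lay inside the range of the Perthes rabbits, of which 2 were below and 1 above all controls. The log2 fold change of *TGFB1* (gene 100008645) was -0.09 (standard error, SE, 0.17; edgeR adjusted p = 0.739) and had a 95% interval from -0.48 to 0.29. That level stood beside megakaryocyte and platelet markers whose summed level in Perthes rabbits was below that of every control. The deposited counts of *TGFB1* were not whole in any of the 8 libraries, so that part of its reads had been divided with another gene by the authors' quantification. The other 9 members had whole counts throughout.

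*TGFB2*, an isoform that relies on betaglycan for receptor binding, varied widely in both groups. It stood at 47.6, 23.3, 22.0, 57.1 and 28.7 CPM in the Perthes rabbits and at 13.6, 20.4 and 39.6 CPM in the controls. Perthes rabbits 1 and 4 were above all controls and the other 3 lay within the control range. *TGFB3*, an isoform prominent in developing cartilage and other mesenchymal tissue, showed 55.2, 68.7, 68.3, 58.4 and 59.1 CPM in the Perthes rabbits and 17.7, 46.5 and 61.9 CPM in the controls. The Perthes rabbits were close together, with a coefficient of variation of 9.98%, while the controls spread over 53.3%. Control rabbit 3 lay inside the Perthes range and control rabbit 1 far below it. The log2 fold changes of *TGFB2* (100009371) and *TGFB3* (100358982) were 0.54 (95% interval -0.42 to 1.51) and 0.56 (-0.20 to 1.32), with adjusted p-values of 0.413 and 0.285 from edgeR. These intervals include no change and also a doubling. Without control rabbit 1 the 2 values were 0.26 and 0.19, and without control rabbit 3 they were 1.07 and 0.95, called in neither.

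*LTBP1*, which anchors latent TGF-beta in the matrix, rose 2.22-fold. Its level was 246, 160, 205, 199 and 216 CPM in Perthes rabbits 1 to 5 and 51.5, 100.4 and 125 CPM in the controls. All 5 Perthes rabbits lay above all 3 controls, and control rabbit 1 was again the lowest. The group means were 205 ± 31.1 CPM (SD, n = 5) and 92.3 ± 37.4 CPM (SD, n = 3). The log2 fold change of *LTBP1* (100342431) was 1.15 (SE 0.29, edgeR adjusted p = 0.0301). Leaving out 1 rabbit at a time kept the sign, between 0.87 without control rabbit 1 and 1.43 without control rabbit 3. The adjusted p stayed below 0.05 in 3 of these 8 fits and was between 0.0509 and 0.0932 without Perthes rabbits 1, 3 or 5 or control rabbits 1 or 2.

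*LTBP2*, a microfibril-associated relative, did not show that pattern. It measured 159, 418, 316, 109 and 158 CPM in Perthes rabbits and 145, 261 and 142 CPM in controls. Perthes rabbits 2 and 3 were above all controls and Perthes rabbit 4 was below them. Perthes rabbit 2, the highest for *LTBP2*, was the lowest of its group for *LTBP1*. *LTBP2* (100341209) had a log2 fold change of 0.34 (95% interval -0.67 to 1.36, adjusted p = 0.633 from edgeR), which was 0.02 without Perthes rabbit 2 and 0.69 without control rabbit 2. The matrix relatives *LTBP3* and *LTBP4*, which also bind latent TGF-beta and were matched by gene identifier, had log2 fold changes of 0.06 and 0.40 (adjusted p = 0.899 and 0.504 from edgeR).

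*TGFBR2*, the kinase receptor that binds free ligand, rose 1.48-fold and was the least variable member among the Perthes rabbits. They had 356, 375, 360, 369 and 397 CPM, against 235, 242 and 277 CPM in controls. The groups were apart, and the coefficient of variation was 4.27% in the Perthes group and 8.94% in controls. The means were 371 ± 15.9 CPM (SD, n = 5) and 251 ± 22.5 CPM (SD, n = 3). The log2 fold change of *TGFBR2* (100344335) was 0.56 (SE 0.16, edgeR adjusted p = 0.0415). It stayed between 0.52 and 0.64 with any 1 rabbit left out, but the adjusted p was below 0.05 only without Perthes rabbit 1 or 4 and reached 0.159 without control rabbit 2. With library totals in place of TMM it was 0.47 (adjusted p = 0.0911 from edgeR), and with no low-count filter 0.57 (0.0614).

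*TGFBR1*, the receptor kinase that signals to the SMAD proteins, was of similar mean change but of greater spread. It was measured at 225, 139, 149, 121 and 190 CPM in the Perthes rabbits and at 111.2, 111.3 and 117 CPM in the controls. Every Perthes rabbit was above every control, although Perthes rabbit 4 only narrowly. For *TGFBR1* (100345812) the log2 fold change was 0.54 (95% interval 0.04 to 1.05), and the adjusted p of 0.128 from edgeR missed the threshold. *TGFBR3* (100342897), the betaglycan co-receptor, stood at 51.6, 70.0, 58.3, 81.8 and 33.7 CPM in the Perthes rabbits and at 51.1, 78.1 and 68.2 CPM in the controls. Perthes rabbit 5 was below all controls, rabbit 4 was above them and the rest were among them. Its log2 fold change was -0.16 (95% interval -0.78 to 0.47, adjusted p = 0.730 from edgeR).

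*SMAD7*, the feedback inhibitor of the receptor, lay above all controls in 4 of 5 Perthes rabbits. The levels were 28.3, 42.8, 47.5, 52.8 and 40.0 CPM in the Perthes group and 21.0, 30.2 and 34.2 CPM in the controls. Perthes rabbit 1 was the exception and lay between control rabbits 1 and 2. *SMAD7* (100338818) had a log2 fold change of 0.57 (95% interval 0.04 to 1.11, adjusted p = 0.134 from edgeR). It was 0.40 without control rabbit 1 and 0.72 without control rabbit 3, and was called in neither.

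*TGFBI*, a secreted adhesion protein of the matrix named for its induction by TGF-beta, showed the largest change of the 10 genes, 5.34-fold. It was counted at 805, 476, 504, 2076 and 2072 CPM in Perthes rabbits 1 to 5 and at 261, 191 and 214 CPM in the controls. All Perthes rabbits were above all controls, but they split into rabbits 4 and 5, at 2072 CPM or more, and rabbits 1 to 3, at 805 CPM or less. The highest of the group was 4.37 times the lowest, the widest span among the members. The means were 1187 ± 821 CPM (SD, n = 5) and 222 ± 35.4 CPM (SD, n = 3), and the log2 fold change of *TGFBI* (100009230) was 2.42 (SE 0.59, edgeR adjusted p = 0.0286). Macrophages are one known source of this protein. The macrophage marker sum was 416 CPM in Perthes rabbit 4, the lowest of the group, and 1346 CPM in Perthes rabbit 5, the second highest. Fibroblast marker sums of these rabbits were 4502 and 3168 CPM, and their chondrocyte marker sums were 135859 and 59378 CPM. Which cells gave rise to the *TGFBI* levels was not tested. The log2 fold change was 2.12 without Perthes rabbit 4 (adjusted p = 0.0342 from edgeR) and 2.13 without Perthes rabbit 5 (0.0604). Without control rabbits 1, 2 or 3 it was 2.55, 2.32 or 2.39, with adjusted p-values from 0.0702 to 0.109.

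**Figure D3:**
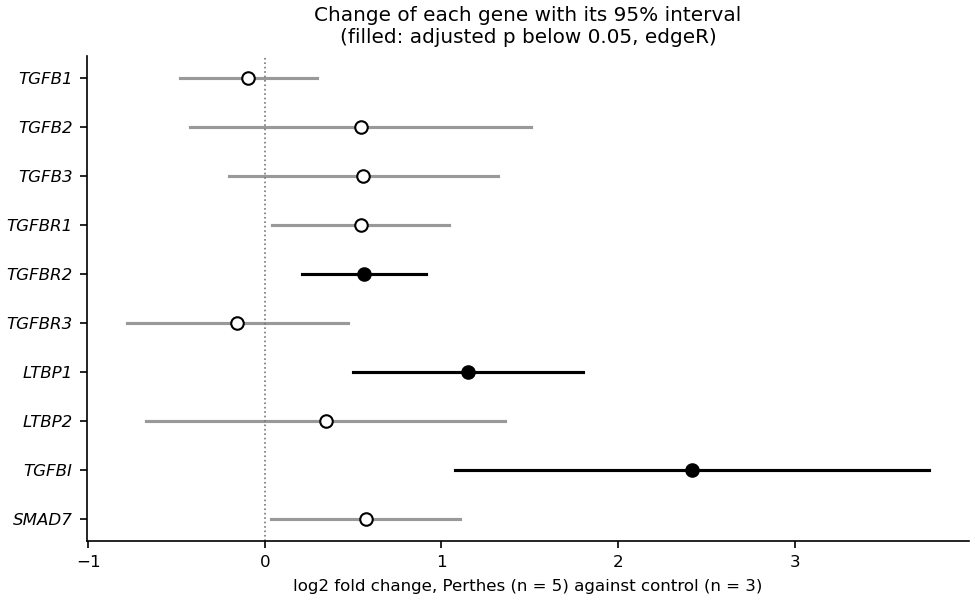
Log2 fold change of each gene between 5 Perthes and 3 control rabbits with its 95% interval, filled where the adjusted p from edgeR was below 0.05. *TGFBI* at 2.42, *LTBP1* at 1.15 and *TGFBR2* at 0.56 are filled, and the intervals of *TGFBR1* and *SMAD7* also lie above 0.

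**Figure D4:**
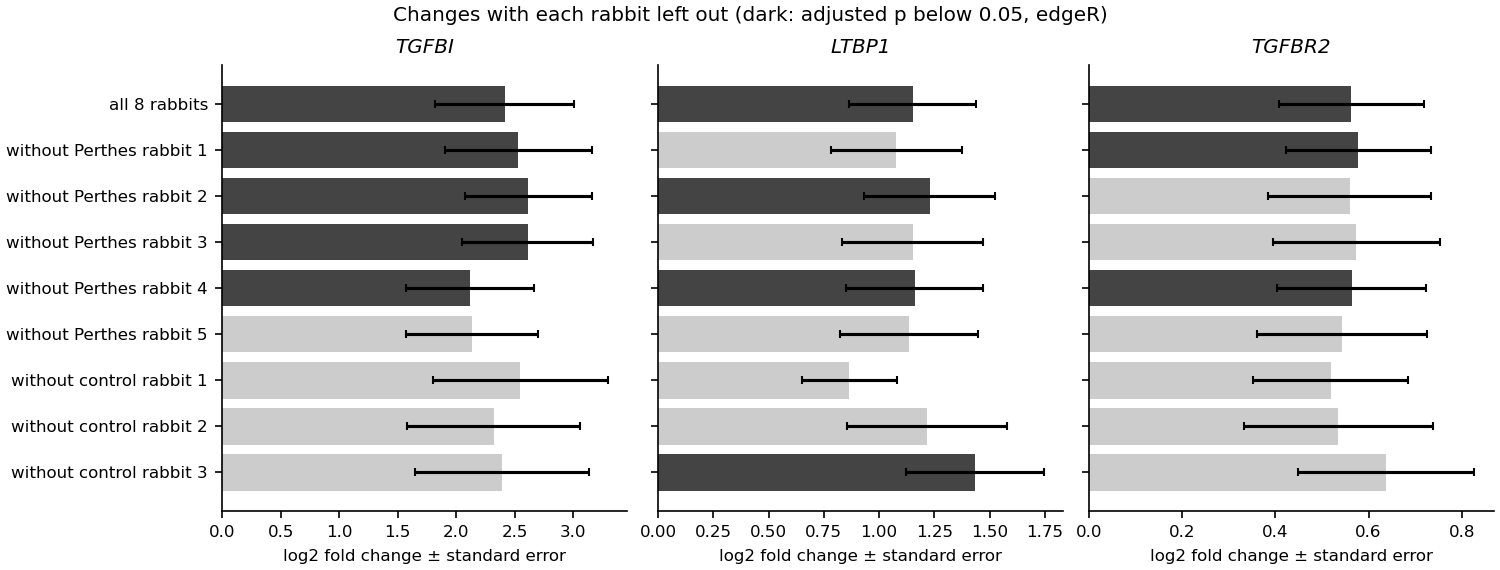
Log2 fold change (bar) and standard error of *TGFBI*, *LTBP1* and *TGFBR2* with all 8 rabbits and with each rabbit left out, dark where the adjusted p from edgeR was below 0.05. All changes stay above 0, and the dark bars number 4, 3 and 2 of the 8 fits with a rabbit left out.

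The count of 3 members higher depended on which rabbit was left out. It was 3 without Perthes rabbit 4 and 2 without Perthes rabbit 1 or 2. Without Perthes rabbit 5, control rabbit 1 or control rabbit 2 it was 0 in edgeR, with 3 members higher at an unadjusted p below 0.05 in each fit. In these fits 1938 of 15228, 1861 of 15632 and 1624 of 15594 tested genes were higher at that level. The count of members was 1 without Perthes rabbit 3 or control rabbit 3. The thresholds of the study required both a log2 fold change above 2 in size and an adjusted p under 1e-05. DESeq2 as run here called no member at these thresholds. The nearest was *TGFBI*, at a log2 fold change of 2.43 and an adjusted p of 9.32e-05 from DESeq2.

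Ratios of the counts of members within a library do not depend on how libraries are scaled to each other, and 5 were compared by an exact two-sided permutation test with adjustment over the 5. No ratio passed. Counts of *TGFBR3* relative to *TGFBR2* were 0.145, 0.187, 0.162, 0.222 and 0.0849 in the Perthes rabbits and 0.217, 0.323 and 0.246 in the controls. Perthes rabbit 4 overlapped control rabbit 1, and the other 4 lay below all controls. The log2 ratio differed by -0.76 (exact permutation p = 0.0714, adjusted p = 0.268). The smallest p that 5 rabbits against 3 allow is 0.0357. After adjustment over the 5, a ratio at this minimum could not have passed alone. That no ratio passed therefore does not show that the ratios were unchanged.

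The balance of the ligands and of the latent-binding proteins was not told apart from the spread of the rabbits. *TGFB3* relative to *TGFB1* ran from 0.913 to 1.72 in Perthes rabbits and from 0.311 to 1.11 in controls, and the log2 ratio differed by 0.84 (exact permutation p = 0.143, adjusted p = 0.268). *LTBP2* relative to *LTBP1* ran from 0.548 to 2.61 against 1.14 to 2.82, a difference of -1.01 on the log2 scale (exact permutation p = 0.214, adjusted p = 0.268). Here Perthes rabbits 1, 4 and 5 lay below all controls. *TGFB2* relative to *TGFB1* differed by 0.69 (exact permutation p = 0.214, adjusted p = 0.268) and *TGFBR1* relative to *TGFBR2* by -0.06 (exact permutation p = 0.821). Without control rabbit 1 the differences for *TGFB3* and *TGFB2* relative to *TGFB1* were 0.32 and 0.34, and without control rabbit 3 they were 1.24 and 1.13. That for *LTBP2* relative to *LTBP1* ran from -1.42 without control rabbit 3 to -0.77 without control rabbit 1.

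The wider pathway was followed in lists of genes that keep TGF-beta latent or release it, that pass on its signal, and that are known to respond to it. These lists were chosen with earlier results of these data known, so their counts are description and no independent support. Among 84 other tested genes that the deposited annotation puts in the KEGG TGF-beta signaling pathway, 6 were higher and 5 lower, near the share over all genes. Of 22 latency and activation genes, 21 were tested, 11 rose and 0 fell, beside 6.21% of all genes higher and 8.86% lower, with a median log2 fold change of 0.91 against 0.02 over all genes. All 11 had groups that did not overlap, as 11.2% of all genes did in this direction. They were the proteases *PLAU*, *PLAT*, *MMP2* and *MMP14*, the integrin subunits *ITGAV*, *ITGB1*, *ITGB5* and *ITGB8*, the propeptide protease *FURIN* and the microfibril genes *FBN1* and *EMILIN1*. *PLAU*, the urokinase plasminogen activator, had 63.1 to 204 CPM in Perthes rabbits and 18.8 to 26.6 CPM in controls, and its log2 fold change was 2.60 (SE 0.39, edgeR adjusted p = 0.0118). *FURIN*, which cuts the proprotein, had 144 to 232 CPM against 88.8 to 119.6 CPM and rose by 0.94 on the log2 scale (adjusted p = 0.0208 from edgeR). *FBN1*, the fibrillin to which LTBP1 is anchored, had 757 ± 197 CPM (SD, n = 5) in Perthes rabbits against 293 ± 114 CPM (SD, n = 3), a rise of 1.37 on the log2 scale (adjusted p = 0.0299 from edgeR).

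Integrins that hold the alpha-v chain can bind the propeptide and help to release the ligand. Their alpha chain *ITGAV* rose by 1.05 on the log2 scale and the beta chains *ITGB8* and *ITGB5* by 1.76 and 0.89 (adjusted p = 0.0313, 0.0326 and 0.0188 from edgeR). *ITGB3*, the beta chain of platelets and osteoclasts, had a log2 fold change of -0.54 (adjusted p = 0.318 from edgeR), and *ITGB6*, a beta chain of epithelia, was nearly absent and not tested. The cell-surface anchors *LRRC32* and *NRROS* of lymphoid and myeloid cells had log2 fold changes of -0.50 and -0.06 (adjusted p = 0.423 and 0.929 from edgeR). Several of the called genes are also expressed by fibroblasts and osteoclasts, whose marker sums were higher in all Perthes rabbits. The part of these cells in the calls was not tested. Without 1 rabbit the count of 11 ranged from 11 down to 4 without Perthes rabbit 3, 3 without Perthes rabbit 5, 2 without control rabbit 1 and 0 without control rabbit 2.

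Of 24 genes of co-receptors and SMAD transduction, 23 were tested, 2 rose and 1 fell, with a median log2 fold change of 0.27. *CD109*, a surface protein that binds TGF-beta and limits its receptor, had 254 to 419 CPM in Perthes rabbits and 88.9 to 203 CPM in controls (log2 fold change 1.31, adjusted p = 0.0218 from edgeR). *ACVRL1*, a second type I receptor found mainly in endothelium, had 27.3 to 43.8 CPM against 18.9 to 23.7 CPM (0.85, 0.0224). *USP15*, a deubiquitinase that stabilizes TGFBR1 and opposes SMAD7, was the gene that fell. It had 40.1 ± 12.3 CPM (SD, n = 5) in Perthes rabbits against 74.3 ± 11.5 CPM (SD, n = 3), with a log2 fold change of -0.89 (adjusted p = 0.0438 from edgeR). The signal carriers themselves changed little in mean. *SMAD2*, *SMAD3* and *SMAD4* had log2 fold changes of 0.02, 0.31 and 0.27 (adjusted p = 0.963, 0.340 and 0.478 from edgeR). The counts of 2 and 1 here are close to the background of 6.21% and 8.86%, and the first became 0 without Perthes rabbit 3 or 5 or control rabbit 1 or 2, the second without any rabbit but Perthes rabbit 1, where it was 2.

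Of 28 genes known to respond to TGF-beta, 26 were tested, 12 rose and 0 fell, beside 6.21% of all genes higher and 8.86% lower. All 26 had log2 fold changes above 0 (median 1.19), as did 7899 of the 15305 genes tested. All 12 that rose had groups that did not overlap, as 11.2% of all genes did in this direction. The contractile genes *TAGLN* and *ACTA2* were among the largest changes. *TAGLN* had 163, 86.7, 145, 50.1 and 138 CPM in Perthes rabbits and 7.46, 10.96 and 7.81 CPM in controls, with a log2 fold change of 3.74 (SE 0.43, edgeR adjusted p = 0.0118). *ACTA2*, smooth muscle actin, stood at 156, 62.8, 180, 41.9 and 198 CPM against 5.61, 12.5 and 14.2 CPM (log2 fold change 3.57, adjusted p = 0.0133 from edgeR). Perthes rabbit 4, the joint highest for *TGFBI*, was the lowest Perthes rabbit for both genes.

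*NOX4*, an oxidase induced in myofibroblasts, had 1.56 to 7.60 CPM in Perthes rabbits and 0 to 0.317 CPM in controls, where it had 0, 9 and 7 counts (log2 fold change 4.32, SE 0.86, edgeR adjusted p = 0.0159). The cell cycle inhibitors *CDKN1A* and *CDKN2B* rose by 2.16 and 1.24 on the log2 scale and the elastic fibre gene *ELN* by 2.73 (adjusted p = 0.0118, 0.0205 and 0.0121 from edgeR). Besides these 6, the genes *CCN1*, *COL3A1*, *POSTN*, *VCAN*, *SNAI1* and *BHLHE40* passed the test. The abundant bone matrix genes *COL1A1*, *COL1A2* and *SPARC*, although known to respond, had log2 fold changes of 0.15, 0.20 and 0.13 (adjusted p = 0.842, 0.761 and 0.820 from edgeR). The genes of this list answer to other signals as well, and many are markers of fibroblasts or smooth muscle, so the list is no measure of TGF-beta activity. It was also chosen with earlier results of these data known, so its counts are description only. Without 1 rabbit the count of 12 was 11 at most, and it fell to 7 without Perthes rabbit 3, 5 without Perthes rabbit 5, 2 without control rabbit 1 and 0 without control rabbit 2.

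**Figure D5:**
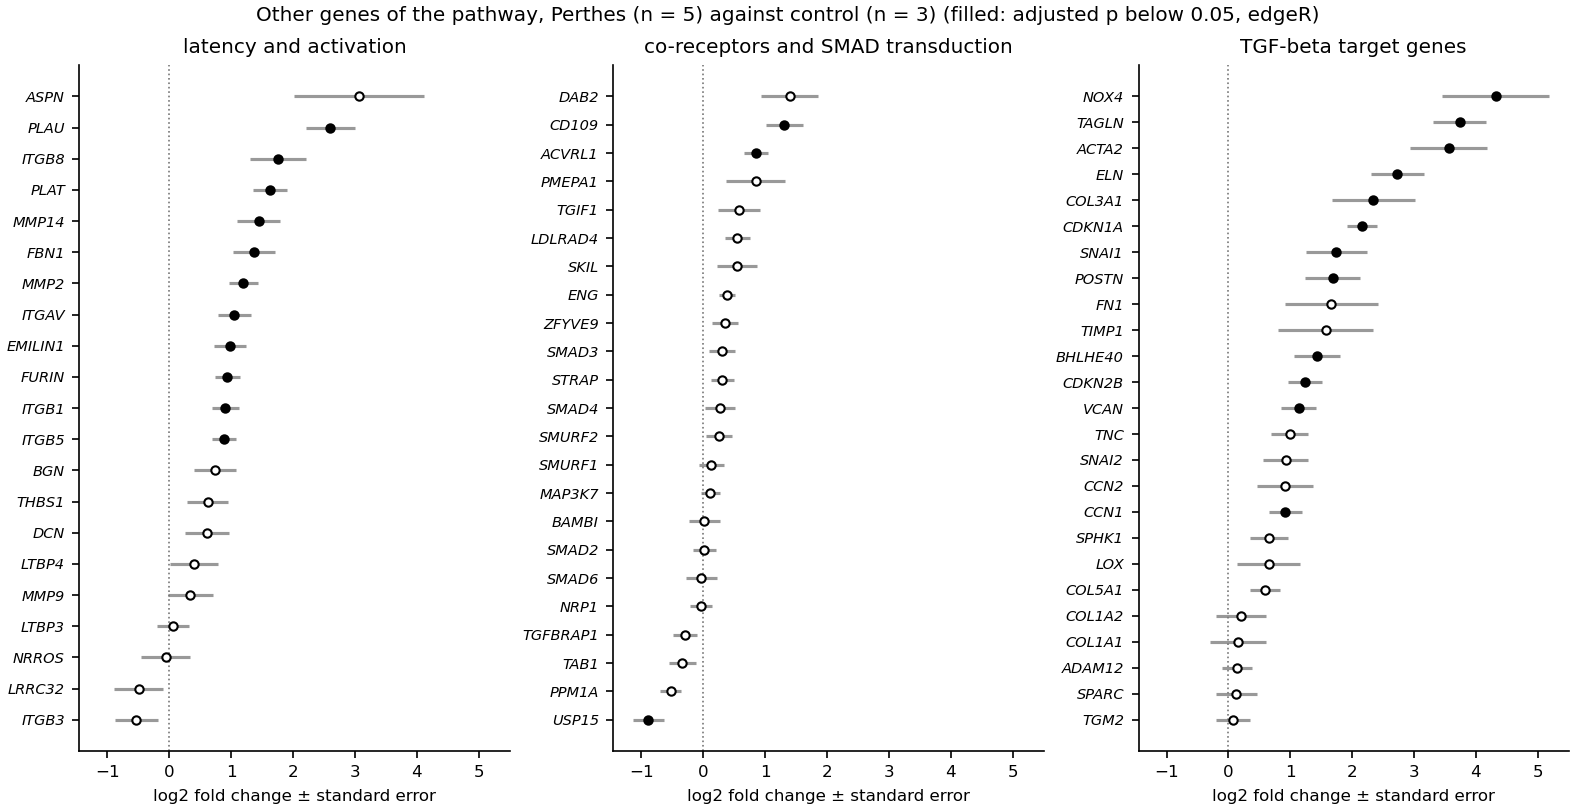
Log2 fold change and standard error of the tested genes of the 3 pathway lists between 5 Perthes and 3 control rabbits, filled where the adjusted p from edgeR was below 0.05. Filled genes number 11 of 21 for latency and activation, 3 of 23 for co-receptors and SMAD transduction and 12 of 26 for TGF-beta target genes, of which 1 gene that did not pass the test is not drawn.

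The genes whose log2 CPM followed the called members most closely over the 8 rabbits are given as a description, since group difference and library are shared by all points. *TGFBR2* was followed most closely by *SDC1*, a heparan sulfate proteoglycan, and *GOLM1*, a Golgi membrane protein (Pearson r = 0.989 and 0.982). For *LTBP1* they were *ATP6V0E2*, a proton pump subunit, and *EMP1*, an epithelial membrane protein (0.996 and 0.993). For *TGFBI* they were *MIF*, a cytokine, and *GRIN2C*, a glutamate receptor subunit (0.986 and 0.979).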

How the data were processed

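Total RNA was depleted of ribosomal RNA and sequenced as 150 bp read pairs. The authors filtered the reads with SOAPnuke, mapped them with HISAT2 2.0.4 and used RSEM 1.1.17 and HTSeq 1.99.2 for gene quantification. They deposited expected counts per gene without normalization, which were rounded here to whole counts. Another 8 columns repeat these values and were not used, nor was the miRNA table. The third control was numbered by its code, because its title repeats the number 2.

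TMM scaling, filterByExpr and the quasi-likelihood test came from edgeR 4.0.16 (R 4.3.3), without covariates. P-values were adjusted by Benjamini-Hochberg over all genes tested. DESeq2 1.42.0, the tool of the study, was an alternative. The standard error is the log2 fold change divided by the square root of F. Log2 CPM used a prior count of 2 and ratios an added count of 0.5. Exact permutation tests ran over all 56 divisions of the rabbits. The edgeR and DESeq2 fits were also run on simulated counts, and the outcome is not given here.

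The members and lists were chosen with earlier results of these data known. The text names all members, up to 6 called genes per pathway list with the smallest adjusted p, and the 2 named genes most correlated with each called member. Other list genes were named after their values were seen. Symbols came from the table, and *LTBP3* and *LTBP4* were matched by gene ID to the RefSeq gene table (assembly mOryCun1.1), used for names only. Among the genes listed, *SKI*, *IL11*, *JUNB*, *COMP*, *PF4*, *ELANE*, *CD79A* and *CNN1* were not analysed here. Of the target genes, 1 entered the list's counts and median but is otherwise not reported here.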

Additional observations from a re-analysis of the deposited data

How the results depend on the processing

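The directions of all 10 members held under every alternative except that of *TGFBR3*, which ranged from -0.31 to 0.00030, the latter without Perthes rabbit 5, and the difference in the log2 ratio of *TGFBR1* to *TGFBR2* turned to 0.027 between same-numbered rabbits and ranged from -0.19 to 0.043 with 1 rabbit left out, the highest without Perthes rabbit 4. DESeq2 at an adjusted p below 0.05 called 1720 genes higher and 1916 lower, with 5 higher and 2 lower among co-receptors and SMAD transduction. At the thresholds of the study it called 105 genes higher and 95 lower, 0 members, 1 latency gene, 0 and 0 co-receptor genes and 5 target genes. The paper reported more genes in both directions at these thresholds, so these counts are those of the fit run here only. With edgeR beyond a log2 fold change of 1, latency genes numbered 7 and co-receptor genes 1 higher and 0 lower, and 0 were lower with library totals or no low-count filter. With 1 rabbit left out, higher genes numbered between 0 and 1267 and lower genes between 0 and 1628, members from 0 to 3, latency genes from 0 to 11, co-receptor genes from 0 to 2 in each direction and target genes from 0 to 11. Each of these counts was 0 without control rabbit 2, and some were 0 without other rabbits too, as given with the results. Without control rabbit 2, 1624 genes were higher and 2098 lower at an unadjusted p below 0.05 in edgeR.

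Rabbits share replicate numbers 1 to 3, but the labels do not tie them. Deviations of same-numbered rabbits correlated at -0.32, 0.16 and -0.24, and 1 of 3 Perthes rabbits correlated best with its own number. With the number as a block, 0 genes were called in either direction by edgeR, 0 members, 0 latency, 0 co-receptor and 0 target genes (1504 higher and 1648 lower at an unadjusted p below 0.05, with 2 members higher). By construction this fit draws the difference from rabbits 1 to 3 alone. *TGFBI* then had a log2 fold change of 1.39, *LTBP1* 1.20 and *TGFBR2* 0.54. The lowest count of a member in a library was 381, and the effect of depth on the calls was not tested.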

Other observations

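The annotation in the deposited table puts 101 genes in the KEGG TGF-beta signaling pathway, among them 7 of the 10 members and not *TGFBR3*, *LTBP2* or *TGFBI*. This list was looked up after the values were seen. Of the 94 other genes 84 were tested, 6 were higher and 5 lower in Perthes rabbits (edgeR, adjusted p below 0.05), near the background of 6.21% and 8.86%, with a median log2 fold change of 0.19. Those higher included *GDF7* and *GDF6*, ligands of the bone morphogenetic protein branch, with log2 fold changes of 3.10 and 2.89 (adjusted p = 0.0151 and 0.0345 from edgeR). *GDF7* had 2.18 to 11.2 CPM in Perthes rabbits and 0.464 to 0.964 CPM in controls. The activin receptor *ACVR1B* and the phosphatase subunit *PPP2CB* rose by 0.75 and 0.56 on the log2 scale (adjusted p = 0.0337 and 0.0435 from edgeR), and *FBN1* and *CDKN2B* are described with the lists. Those lower included *E2F4* and *RBL1*, which form a repressor of cell cycle genes, at -1.47 and -1.32 (adjusted p = 0.0118 each from edgeR). *E2F4* had 29.2 to 55.3 CPM in Perthes rabbits and 84.0 to 115 CPM in controls. The coactivator *EP300*, which SMAD complexes use, and the phosphatase subunit *PPP2R1B* were at -0.77 and -0.72 (adjusted p = 0.0182 and 0.0217 from edgeR), and the fifth lower gene carries only the identifier LOC100101568.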
